A study of Mus musculus with 22 samples.

Results

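The genes described here encode the machinery that copies DNA and divides the cell. There were 40 of them, chosen by name and kept where their mean normalised count in white adipose tissue (WAT) was above 10, and all 40 passed. The WAT table held 47628 rows, of which 17928 passed the same limit. In striatum 38 of the 40 passed, among 15827 rows of 55327, and Cdc6 and Cdc45 lay below the limit with means of 7.63 and 7.81. The lowest member kept in WAT was Bub1, with a mean of 13.6. Of the 40, 16 act at the entry into S phase or in DNA synthesis and are called replication genes, and 24 act in G2 or mitosis and are called mitosis genes.

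RNA-seq counts were taken from wild-type C57BL/6J mice that the labels give as male and 8 weeks old. In WAT, 4 libraries came from mice made hypothyroid with propylthiouracil (PTU, a drug that blocks the synthesis of thyroid hormone) for 2 weeks, 4 from mice treated with thyroid hormone (TH) for 6 h and 4 from mice treated for 24 h. In striatum there were 2 libraries labelled PTU for 2 weeks, 4 labelled TH 12 h and 4 labelled TH 24 h. The labels of the TH libraries name no PTU. For WAT the study lists PTU in food and a single injection of the hormones T3 and T4, whereas for striatum it lists no treatment to make mice hypothyroid, so the PTU group of striatum rests on the labels. Nothing in the labels says whether the libraries of a group came from separate animals, so the p-values measure the spread between libraries, which may be technical where they did not. Both tissues were taken whole, so more dividing cells and more mRNA per cell cannot be told apart.

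Total counts were 17.3 to 26.9 M per WAT library and 8.04 to 10.1 M per striatum library. The marker of hormone action Hr, a corepressor gene induced by TH in many tissues, rose by 3.56 on the log2 scale at 6 h and by 4.19 at 24 h in WAT. It rose by 2.49 at 12 h and by 2.68 at 24 h in striatum (adjusted p of 0.0026 and 0.00125 by edgeR). The fat cell hormone Adipoq was at 32295 to 95132 normalised counts in every WAT library, whereas markers of skeletal muscle varied between 814 and 457015 in sum. In striatum, TH 24 h replicate 2 had 31.4 normalised counts of the striatal receptor Drd2, against 832 to 2151 in the other 9. Xist, which is transcribed from the inactive X chromosome of females, was at 22070.1 to 33693 normalised counts in 6 striatum libraries labelled male (PTU replicate 6, TH 12 h replicate 1 and the 4 of TH 24 h) and at most 17.8 in the other 4, so PTU and TH 12 h each held libraries of more than 1 animal. Striatum counts of calls, medians and levels are therefore also given without TH 24 h replicate 2, and counts and medians with a term for Xist.

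A cell commits to division when D-type cyclins and their kinases release E2F factors from the retinoblastoma proteins. E2F then switches on the replication genes: the MCM helicase, its loaders, and the enzymes that make deoxynucleotides. Mitosis genes come later in the cycle, and in resting cells they are held silent by the DREAM complex through a promoter element called CHR, often beside CCAAT boxes. In adult WAT few cells divide. Those that do include progenitors, macrophages and lymphocytes of the lymph nodes inside the fat pad.

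The promoters of both groups are shown because the share of genes with these elements differed between the groups, although none of the elements separated them fully. RefSeq windows (GRCm38.p6, 250 bases before to 50 after the start site) were found for 34 of the 40 members. The letters TTTGAA or TTCGAA, the CHR core, stood on either strand in 16 of 20 mitosis genes with a window and in 3 of 14 replication genes, and in 19.2% of all 32851 windows. The E2F letters TTTCCCGC, TTTGGCGC, TTTCGCGC or TTTGCCGC stood in 5 of 14 replication genes (Mcm3, Mcm5, Mcm6, Mcm7 and Cdc6), in 2 of 20 mitosis genes (Cdk1 and Ncapg), and in 2.26% of all windows. CCAAT stood in 18 of 20 mitosis genes, in 9 of 14 replication genes and in 37.4% of all windows. A match describes the letters and does not show that a factor binds. In the sequences below, each from the minus strand and written 5′ to 3′, capitals mark the E2F letters in Mcm3 (chr1:20820263-20820562) and Mcm6 (chr1:128359656-128359955, where 2 matches overlap), and the CHR core in the cyclin gene Ccnb2 (chr9:70421505-70421804) and in Top2a (chr11:99024140-99024439).
Mcm3: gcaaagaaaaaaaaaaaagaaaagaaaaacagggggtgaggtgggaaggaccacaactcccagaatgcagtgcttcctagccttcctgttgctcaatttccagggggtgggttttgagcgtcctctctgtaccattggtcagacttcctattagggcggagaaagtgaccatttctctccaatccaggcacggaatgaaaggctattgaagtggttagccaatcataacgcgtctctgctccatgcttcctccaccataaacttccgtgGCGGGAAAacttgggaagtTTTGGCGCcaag
Mcm6: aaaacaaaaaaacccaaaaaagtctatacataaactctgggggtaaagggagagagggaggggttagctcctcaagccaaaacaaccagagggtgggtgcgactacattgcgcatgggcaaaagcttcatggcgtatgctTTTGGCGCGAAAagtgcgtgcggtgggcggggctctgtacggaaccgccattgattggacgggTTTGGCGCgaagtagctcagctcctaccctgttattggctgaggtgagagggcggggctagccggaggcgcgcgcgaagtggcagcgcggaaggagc
Ccnb2: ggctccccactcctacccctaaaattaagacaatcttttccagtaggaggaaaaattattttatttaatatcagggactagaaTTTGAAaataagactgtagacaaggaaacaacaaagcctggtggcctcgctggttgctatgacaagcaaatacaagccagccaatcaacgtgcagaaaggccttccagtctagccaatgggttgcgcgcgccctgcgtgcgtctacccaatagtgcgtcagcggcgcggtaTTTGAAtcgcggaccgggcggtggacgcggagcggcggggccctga
Top2a: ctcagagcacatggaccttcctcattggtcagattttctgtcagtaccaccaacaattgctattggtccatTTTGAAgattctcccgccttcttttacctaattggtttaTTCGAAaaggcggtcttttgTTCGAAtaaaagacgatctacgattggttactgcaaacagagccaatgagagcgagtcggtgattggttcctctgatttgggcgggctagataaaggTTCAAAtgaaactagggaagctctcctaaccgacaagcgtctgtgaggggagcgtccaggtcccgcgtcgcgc

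In WAT at 6 h after TH, 0 of the 40 members passed the test against PTU (edgeR quasi-likelihood test, adjusted p under 0.05), where 7.23% of all rows did, 4.18% higher and 3.05% lower. With DESeq2 the count was also 0. Before adjustment Mcm3 and Cdc45 were under the threshold of 0.05, so 2 of 40, against 25.4% of all rows. The log2 change was positive for 34 of the 40, with a median of 0.24 against -0.03 over all rows. It was 0.20 over the replication genes (14 of 16 positive) and 0.34 over the mitosis genes (20 of 24 positive). In none of the 40 did the 6 h libraries lie wholly outside the PTU libraries, which 7.85% of all rows did upward and 6.07% downward.

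At 24 h, 1 of the 40 passed, against 17.1% of all rows, 7.45% higher and 9.62% lower. The same member was the only one of the 40 whose 24 h libraries did not overlap PTU, which 8.99% of all rows did upward and 10.3% downward. The median log2 change was 0.11 for replication and 0.13 for mitosis genes. Between 24 h and 6 h, 0 of 40 passed, against 7.41% of all rows, 3.07% higher and 4.35% lower. DESeq2 gave 1 and 0 members in these 2 comparisons. Before adjustment 2 members were under 0.05 in each, against 32% and 24.1% of all rows. The contrasts with PTU share the PTU libraries, so their values are set side by side and their likeness is not a result.

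**Figure D1:**
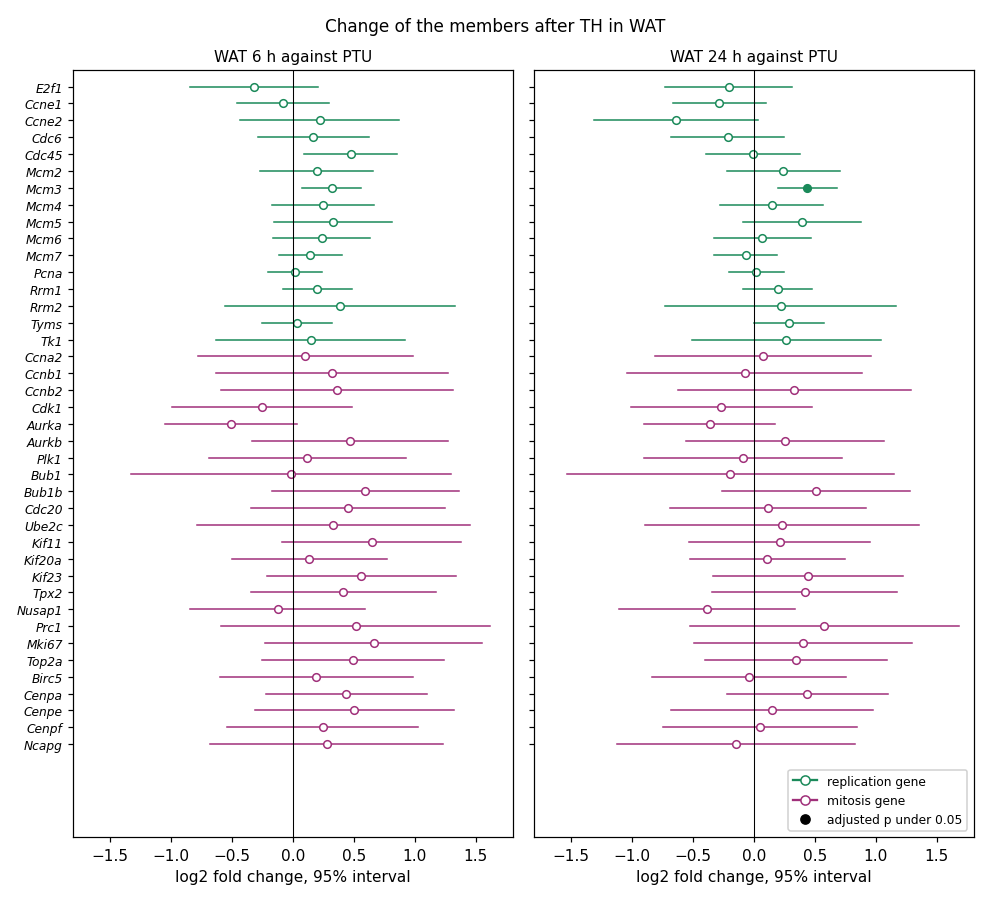
Log2 fold change of each member in WAT at 6 h (left) and 24 h (right) against PTU, from edgeR, with the 95% interval as a line; green are replication and purple mitosis genes, and a filled point passed the test. Only Mcm3 at 24 h is filled, and the intervals of the mitosis genes are wider than those of most replication genes.

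The member that passed was Mcm3 (chromosome 1, 20802968 to 20820312), a subunit of the MCM2-7 helicase that unwinds DNA at the fork. Its normalised counts were 218, 242, 281 and 289 in PTU, 359, 344, 287 and 292 at 6 h, and 356, 331, 352 and 356 at 24 h. All 4 libraries of 24 h were above all 4 of PTU. The means were 257 ± 33.3 (SD, n = 4) in PTU, 320 ± 36.6 at 6 h and 349 ± 12.2 at 24 h. Mcm3 rose by 0.44 ± 0.11 (SE, log2) at 24 h (edgeR, adjusted p = 0.0193). At 6 h its log2 change was 0.32 ± 0.11, which did not pass (edgeR, adjusted p = 0.109). The 24 h call held in 10 of 12 fits that left out 1 library, not without PTU replicate 2 or TH 24 h replicate 3 (log2 change 0.41 and 0.44), and in 8 of 11 other alternatives. It was lost, among others, with a term for stratified epithelium markers (0.42) and with one for lymphoid markers (0.23, edgeR, adjusted p = 0.183). The summed epithelium markers were 257 to 549 in PTU, 144 to 3472 at 6 h and 66.4 to 134 at 24 h. All 24 h libraries were thus below all of PTU, so the epithelium term and the 24 h group cannot be fully told apart. The lymphoid markers also changed with the groups, as described below, so the same holds for the lymphoid term.

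The other subunits of the helicase did not pass in either comparison with PTU. Mcm2 was at 120.1, 128, 207 and 215 in PTU, 249, 200.3, 164 and 154 at 6 h, and 213, 168, 219.7 and 191 at 24 h, and the groups overlapped. Over Mcm2 to Mcm7 the log2 changes ran from 0.14 to 0.33 at 6 h and from -0.07 to 0.44 at 24 h. Of the subunits, Mcm5 had the next largest change after Mcm3 at 24 h, 0.40 with a 95% interval of -0.09 to 0.88.

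Cdc45, which joins the MCM ring to form the active helicase, was at 62.4, 113, 85.7 and 94.7 in PTU, at 109.6, 114, 124 and 144 at 6 h, and at 81.99, 77.6, 92.3 and 101 at 24 h. The 6 h libraries were above all of 24 h but overlapped PTU. Its log2 change was 0.47 at 6 h (edgeR, adjusted p = 0.124) and -0.01 at 24 h, and 24 h stood at -0.48 against 6 h (adjusted p = 0.116). The helicase loading factor Cdc6 ranged over 21.03 to 38.6 in the 12 libraries.

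Ccne2, a cyclin E that drives entry into S phase with CDK2, was at 19.2, 59.9, 37.9 and 54.1 in PTU, at 65.99, 46.7, 48.2 and 37.8 at 6 h and at 27.01, 29.1, 29.7 and 23.2 at 24 h. All 24 h libraries were below all 6 h libraries, which 11.8% of all rows did, and below all but 1 of PTU. The log2 change of 24 h against 6 h was -0.86 ± 0.31 (edgeR, adjusted p = 0.109). Against PTU it was 0.22 at 6 h and -0.64 at 24 h (edgeR, adjusted p = 0.678 and 0.179). With PTU replicate 1 left out, the fall at 24 h against PTU was -0.88 and passed (edgeR, adjusted p = 0.0165). Mcm7 also lay lower at 24 h than at 6 h with no overlap, so 3 of the 40 members did. When only the libraries of 6 h and 24 h were fitted, and when PTU replicate 1 was left out, Ccne2 and Cdc45 passed in this comparison. All 3 share exon sequence with a gene on the other strand (Ints8 for Ccne2, Ufd1 for Cdc45, Ap4m1 and Cops6 for Mcm7), and the strand setting of the counts is not given in the sources used here. E2f1, the activating E2F, and Ccne1 had log2 changes between -0.32 and -0.08 in the comparisons with PTU.

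Pcna, the sliding clamp of the polymerases, was at 955 to 1317 in PTU, at 1032 to 1279.5 at 6 h and at 1069.8 to 1177 at 24 h. Its log2 changes were 0.02 at both times, with 95% intervals of -0.21 to 0.24 and -0.20 to 0.25. Part of its counts may belong to near-identical copies, as described with the striatum values. Of the genes of nucleotide supply, Rrm1, the large subunit of ribonucleotide reductase, had log2 changes of 0.20 and 0.19, and Tyms, which makes thymidylate, 0.03 and 0.29 (edgeR, adjusted p = 0.15 at 24 h).

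**Figure D2:**
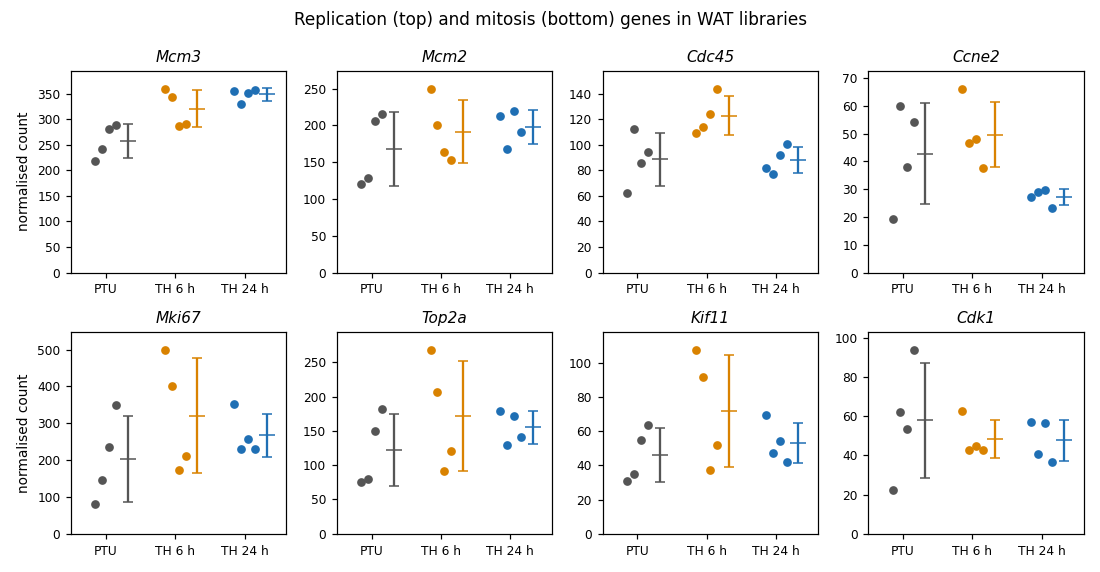
Normalised counts of 4 replication genes (top row) and 4 mitosis genes (bottom row) in the 4 libraries each of PTU, TH 6 h and TH 24 h; points are libraries in the order of their replicate numbers, and the bar beside them is the mean ± SD. The Mcm3 points of 24 h lie above those of PTU, whereas Mki67 spans 81.7 to 349 within PTU.

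Among the mitosis genes, Mki67, whose protein coats mitotic chromosomes and is the common stain for cycling cells, was at 81.7, 145, 236 and 349 in PTU. It was at 498, 402, 172 and 210.2 at 6 h and at 353, 229, 257 and 231 at 24 h. The lowest library of all was in PTU, and 2 libraries of 6 h and 1 of 24 h were above all of PTU. Its log2 change was 0.66 ± 0.41 at 6 h (edgeR, adjusted p = 0.33), while it was 0.40 ± 0.41 at 24 h (adjusted p = 0.531). The 95% interval at 6 h, -0.23 to 1.55, spans a rise of over 1 on the log2 scale. With PTU replicate 4 left out the log2 change was 1.07 at 6 h and 0.80 at 24 h, the highest of the 12 such fits. The lowest was 0.40 at 6 h, with TH 6 h replicate 1 left out, and 0.13 at 24 h, with PTU replicate 1 left out.

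Top2a, the topoisomerase that untangles sister chromatids, showed the same order of libraries in PTU, with 75.9, 80.2, 149.8 and 182. It was at 267, 207, 92.1 and 121 at 6 h and at 178, 129, 172 and 141 at 24 h. The kinase that drives mitosis, Cdk1, was at 22.1, 62.3, 53.2 and 93.5 in PTU, at 62.6, 42.6, 44.98 and 42.7 at 6 h and at 56.9, 40.7, 56.2 and 36.5 at 24 h. Its log2 changes were -0.25 and -0.27, and its partner Ccnb1 had 0.32 and -0.08. These signs rested on single libraries: without PTU replicate 4 Cdk1 stood at 0.10 and 0.07 and Ccnb1 at 24 h at 0.22, and without PTU replicate 1 Ccnb1 at 24 h stood at -0.40.

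The mitosis members with the smallest p at 6 h were the kinase Aurka with a log2 change of -0.51 (edgeR, adjusted p = 0.222), the spindle motor Kif11 with 0.64 (adjusted p = 0.253) and the checkpoint kinase Bub1b with 0.59 (adjusted p = 0.309). Kif11 was at 30.7, 34.7, 55.04 and 63.9 in PTU and at 107, 91.7, 37.5 and 51.7 at 6 h, so 2 of the 6 h libraries were above PTU and 2 were within it. At 24 h the smallest p belonged to Aurka, Cenpa, the centromeric histone, and Bub1b, with log2 changes of -0.36, 0.44 and 0.51. Against 6 h, Kif11, the condensin subunit Ncapg and the kinetochore motor Cenpe had -0.43, -0.42 and -0.35 at 24 h. Bub1, just inside the limit on the mean, was at 3.84 to 25.8 in PTU, 5.35 to 23.5 at 6 h and 5.82 to 20.2 at 24 h.

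The mitosis genes varied more between libraries of a group than the replication genes did. The SD of log2 counts, pooled over the 3 groups, had a median of 0.563 over the mitosis genes and of 0.264 over the replication genes, against 0.244 over the rows tested with a mean within the members' range. It was 0.500 over 53 other mitosis genes and 0.294 over 39 other replication genes. These sets were not matched for level. The median level in WAT was 2.25 counts per M for the mitosis members and 6.90 for the replication members, and low counts carry more sampling noise. The part of sampling noise in these SDs was not tested. Within PTU the highest library was a median of 3.21 times the lowest for mitosis and 1.76 times for replication genes, and within 24 h 1.55 and 1.30 times. The values for single members ran from 0.144 for Pcna to 0.984 for Bub1.

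The same libraries were high or low for most of the genes. PTU replicate 1 held the lowest of the 12 values for 18 of 24 mitosis and 11 of 16 replication genes. PTU replicate 4 was the highest PTU library for 24 of 24 mitosis genes, and TH 6 h replicate 1 the highest of all 12 for 12 mitosis and 9 replication genes. The median log2 deviation of the mitosis genes from their PTU mean was -1.001, -0.41, 0.14 and 0.64 in PTU, 0.79, 0.54, -0.26 and -0.07 at 6 h, and 0.37, -0.13, 0.08 and 0.07 at 24 h. For the replication genes it was -0.41, -0.05, 0.14 and 0.18 in PTU, 0.43, 0.27, -0.03 and 0.03 at 6 h, and 0.14, -0.04, 0.15 and 0.10 at 24 h. The libraries of 6 h and those of 24 h thus lay on both sides of 0, for the mitosis genes and for the replication genes. In PTU the same is not a result, since the PTU mean sets the 0.

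Markers of lymphocytes varied with them. The summed normalised count of 10 T and B cell markers was 7175, 6025, 12330 and 14543 in PTU, 16145, 15678, 9222 and 11539 at 6 h, and 20522, 12736, 15739 and 15272 at 24 h. The B cell receptor gene Cd79a was at 669 and 672 in PTU replicates 1 and 2 and at 989 to 1919.9 in the other 10 libraries, and Cr2, of follicular B and dendritic cells, at 247 and 278 against 377 to 825. Cr2 was 1 of 6 markers of germinal centres. Of these 6, 5 had positive log2 changes and 1 a negative one at 6 h (median 0.41, 0 passed). At 24 h 3 were positive and 3 negative (median 0.03, 0 passed). All 10 lymphoid markers had positive log2 changes at 6 h (median 0.33, 0 passed) and at 24 h (median 0.54, 1 passed). With the lymphoid sum as a term, chosen after these levels had been seen, the median change of the mitosis genes was -0.10 at 6 h and -0.56 at 24 h, and that of the replication genes 0.02 and -0.20. The lymphoid markers changed with the groups, so this term and the TH groups cannot be fully told apart. Whether lymphocytes carry the mitosis transcripts was not tested. Summed macrophage markers were 11572 to 14861 in PTU, 8144 to 15621 at 6 h and 12141 to 16099 at 24 h. All 10 had negative log2 changes at 6 h (median -0.39, 0 passed) and 6 of 10 at 24 h (median -0.10, 0 passed). The sum of 8 adipose progenitor markers was 27038 to 39558 in PTU, 17490 to 26257 at 6 h and 20951 to 26384 at 24 h. All 8 had negative log2 changes at 6 h (median -0.48, 2 fell) and 7 of 8 at 24 h (median -0.37, 1 fell). The part of these cells in the members' values was not tested.

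**Figure D3:**
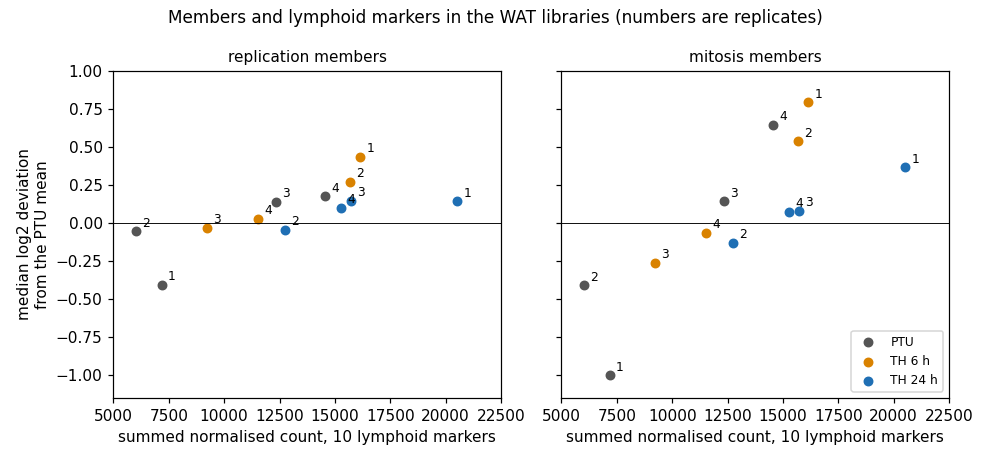
Median log2 deviation from the PTU mean of the 16 replication genes (left) and the 24 mitosis genes (right) in each WAT library, against the summed normalised count of 10 lymphoid markers; colours are groups and numbers replicates. PTU replicates 1 and 2 have the lowest lymphoid sums, replicate 1 has the lowest deviation in both panels, and the mitosis genes span -1.001 to 0.79.

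Leaving out PTU replicate 1 brought the median change at 6 h to 0.11 for mitosis and 0.07 for replication genes, and leaving out PTU replicate 4 brought it to 0.72 and 0.34. At 24 h the same medians were -0.08 and -0.05 without PTU replicate 1 and 0.45 and 0.22 without PTU replicate 4, so the sign at 24 h rested on PTU replicate 1. Without PTU replicate 4, Ube2c, which attaches ubiquitin to mitotic cyclins, passed at both times. It was at 31.7, 45.5, 43.3 and 242 in PTU, at 93.6 to 141 at 6 h and at 80.7 to 117 at 24 h. Ube2c shares exon sequence on the other strand with the muscle gene Tnnc2, which was at 31619 in PTU replicate 4 and at 32.98 to 11529 in the other 11, and the strand setting of the counts is not given.

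Outside the 40 members, 5 lists covered other replication genes, other mitosis genes, G1 cyclins and kinases, CDK inhibitors with pocket proteins, and other E2F and MYC genes. Of their 122 genes tested, 9 passed at 6 h (7.38%, against 7.23% of all rows) and 17 at 24 h (13.9%, against 17.1%), so the lists as a whole passed about as often as other rows or less. All rows passed upward in 4.18% and downward in 3.05% at 6 h, and in 7.45% and 9.62% at 24 h. Of 39 other replication genes, 3 rose and 1 fell at 6 h, and 3 rose and 2 fell at 24 h, which is 10.3% and 12.8%. Of 53 other mitosis genes, 1 rose at 6 h and 2 fell at 24 h.

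Gmnn encodes geminin, which keeps the helicase from being loaded again within the same cycle. It was at 31.7, 44.3, 46.9 and 81.2 in PTU, at 106, 113, 87.8 and 148 at 6 h and at 89.7, 109, 99.8 and 91.9 at 24 h, with no overlap between PTU and either time. It rose by 1.17 ± 0.25 at 6 h and by 0.94 ± 0.25 at 24 h (edgeR, adjusted p = 0.016 and 0.0232). Orc2, a subunit of the complex that marks origins, rose by 0.35 and 0.46 (edgeR, adjusted p = 0.0225 and 0.00261).

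Pole, the catalytic subunit of a leading-strand polymerase, was at 45.2 to 68.2 in PTU, at 97.7 to 130.3 at 6 h and at 49.5 to 78.1 at 24 h. It rose by 0.97 at 6 h (edgeR, adjusted p = 0.00932) and at 24 h fell by 0.82 against 6 h (adjusted p = 0.0213). Rfc3, of the clamp loader, fell by 0.81 and 0.64, and was at 113 in PTU replicate 1 but at 185 to 204 in the other 3. Pold2 rose by 0.48 and Mcm8 fell by 0.64 at 24 h. Of the mitosis genes, the condensin subunit Ncapd2 rose by 0.49 at 6 h, and Anln, of the cleavage furrow, and Cks1b, a CDK binding protein, fell by 0.98 and 0.79 at 24 h.

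The D-type cyclins, which take up mitogen signals in G1, moved apart at 24 h. Ccnd2 was at 4065, 4739.6, 3645 and 3738 in PTU, at 2781, 3561, 3689 and 3463 at 6 h and at 1747, 1619.6, 1974 and 1833 at 24 h. It fell by 1.17 ± 0.12 at 24 h (edgeR, adjusted p = 5.86e-05), and the 24 h libraries lay below all others. Ccnd3 fell by 0.37 and Ccnd1 rose by 0.70 (edgeR, adjusted p = 0.0203 and 0.00719). Ccnd1 was at 287 to 348 in PTU, 288 to 398 at 6 h and 378 to 592 at 24 h. None of the 3 passed at 6 h. Cdk2, Cdk4, Cdk6 and Cdc25a passed at neither time.

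Of 13 inhibitors and pocket proteins tested, 1 rose and 2 fell at 6 h, and 1 rose and 3 fell at 24 h, where 7.23% and 17.1% of all rows passed in either direction. Cdkn1a, which encodes the CDK inhibitor p21, was at 466, 366, 535 and 534 in PTU, at 365, 424, 504 and 391 at 6 h and at 1514, 2360.5, 1488 and 1209.6 at 24 h. It rose by 1.79 ± 0.20 at 24 h (edgeR, adjusted p = 0.00011) and by 1.96 against 6 h. Cdkn2b, an inhibitor of CDK4 and CDK6, was at 127, 217, 148 and 181 in PTU, at 59.3 to 77.2 at 6 h and at 46.7 to 82.96 at 24 h, and it fell by 1.30 at both times. Its relative Cdkn2c fell by 0.87 at 24 h. The cyclin G gene Ccng2 fell by 0.56 and 0.50, and the pocket protein gene Rbl2 rose by 0.32 at 6 h.

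Myc, the growth and proliferation factor, was at 242, 190.4, 261 and 237 in PTU, at 433, 405, 312 and 328 at 6 h and at 538, 719, 388 and 541 at 24 h. It rose by 0.67 ± 0.18 at 6 h and by 1.23 ± 0.18 at 24 h (edgeR, adjusted p = 0.0415 and 0.000747), and no library at either time was as low as a PTU library. The 6 h call held in 3 of 12 fits that left out 1 library and in 7 of 11 other alternatives (edgeR or DESeq2, adjusted p up to 0.121), and the 24 h call in 12 of 12 and 11 of 11. Tfdp1, the partner of E2F proteins, and the repressor E2f4 rose by 0.57 and 0.35 at 24 h. Cdkn1a, Ccnd1, Ccnd2, Ccnd3, Orc2, Pole and Rbl2 share exon sequence with a gene on the other strand, so their counts cannot be assigned to 1 strand.

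Some of these calls rested on single libraries. With each of the 12 WAT libraries left out in turn, the call of Rbl2 at 6 h held in 2 fits, that of Rfc3 in 7 at 6 h and 4 at 24 h, that of Ccng2 in 7 and 8, that of Gmnn in 10 and 8, those of Ncapd2 and Orc2 at 6 h in 8 and 10, and those of Ccnd3, Mcm8 and E2f4 at 24 h in 9, 8 and 10. The calls of Pole and Cdkn2b at 6 h, and at 24 h those of Anln, Ccnd1, Ccnd2, Cdkn1a, Cdkn2b, Cdkn2c, Cks1b, Orc2, Pold2 and Tfdp1, held in 12 of 12.

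**Figure D4:**
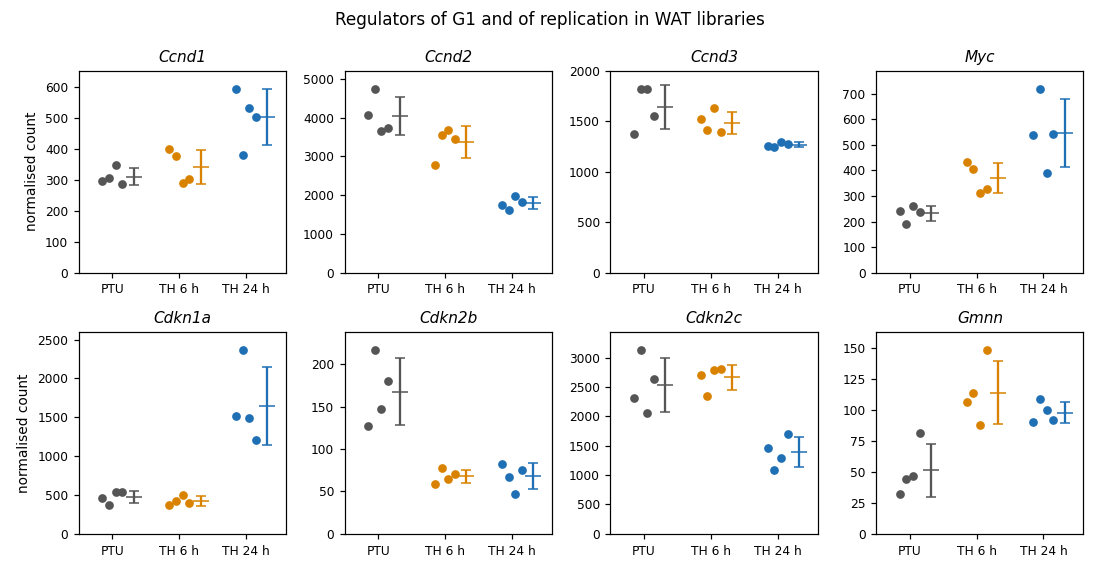
Normalised counts of 8 regulators of the cycle in WAT for PTU, TH 6 h and TH 24 h; points are libraries, and bars are the mean ± SD of 4. Cdkn1a at 24 h lies between 1209.6 and 2360.5, above the other 8 libraries, and Ccnd2 at 24 h lies below them.

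In striatum 0 of the 38 members tested passed at 12 h, where 0.96% of all rows did, and 0 at 24 h, where 0.348% did. DESeq2 also gave 0 and 0. Before adjustment 1 member was under 0.05 at each time, against 20.2% and 9.63% of all rows. The calls of all rows were 0.733% higher and 0.227% lower at 12 h, and 0.316% higher and 0.0316% lower at 24 h. With 2 PTU libraries groups separate easily: 1 member lay above PTU with no overlap and 6 below at 12 h, against 18.9% and 17.5% of all rows, and 0 above and 5 below at 24 h, against 9.7% and 8.47%. The count of members called was 0 at both times with a term for Xist, and 0 at 24 h without replicate 2 of TH 24 h. The median log2 change of the mitosis genes was -0.27 at 12 h and -0.33 at 24 h, and that of the replication genes -0.01 and -0.05. At 24 h the medians were -0.17 and 0.01 without replicate 2 of TH 24 h, and -0.42 and -0.11 with a term for Xist. Replicate 2 of TH 24 h held the lowest of the 10 values for 18 of 24 mitosis genes. Mki67 was at 480.0 and 467 in PTU, at 365, 363, 524 and 334 at 12 h and at 573, 216, 448 and 417 at 24 h, so the groups overlapped. Its log2 change at 24 h was -0.19, and 0.00 without replicate 2 of TH 24 h. Of the regulators, Mycn rose by 1.01 at 12 h and 1.17 at 24 h (edgeR, adjusted p = 0.0155 and 0.00809), and Btg2, an inhibitor of proliferation, rose by 1.07 at 12 h (adjusted p = 0.0306). Leaving out either PTU library ended all 3 calls, the call of Btg2 was also lost without TH 12 h replicate 2, 3 or 4, and with a term for Xist Btg2 did not pass (edgeR, adjusted p = 0.0542).

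Markers of the regions of the brain differed between the same groups. All 6 markers of cortical excitatory neurons had positive log2 changes at 12 h and 24 h (medians 0.97 and 1.17, 0 passed), while 8 of 8 markers of striatal projection neurons at 12 h and 7 of 8 at 24 h had negative ones (medians -0.92 and -0.38, 0 passed). The summed cortical markers were 7471 and 4079 in PTU, 9638 to 15192 at 12 h and 5708 to 23910 at 24 h, and the summed projection neuron markers 30893 and 45059 in PTU, 16268 to 27279 at 12 h and 2240 to 42569 at 24 h. All 10 macrophage markers had negative log2 changes at 12 h (median -0.39). Of 7 markers of neuroblasts, which are immature neurons, 6 had positive log2 changes and 1 a negative one at both times (medians 0.75 and 0.36, 0 passed). The part of tissue makeup in the members' values was not tested.

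The level in striatum was compared with WAT in counts per M of the library (CPM), gene by gene. The ratio of striatum to WAT had a median of 1.75 over the 24 mitosis genes and of 0.708 over the 16 replication genes. For 7 genes (Ccne2, Rrm2, Ccna2, Ccnb1, Bub1, Prc1 and Cenpf) all 10 striatum libraries were above all 12 of WAT, for 6 (Cdc45, Mcm3, Mcm5, Mcm7, Pcna and Tyms) they were below, and for 27 the ranges overlapped. Mki67 was at 44.6 ± 11.1 CPM in striatum and 12.5 ± 6.2 in WAT (SD over 10 and 12 libraries). Mcm3 was at 5.24 ± 0.994 and 14.5 ± 2.82. Tissue, table and RNA preparation differ together here, so these ranges carry no test. Of the genes with no overlap, Ccne2, Cdc45, Mcm7, Ccna2 (Exosc9) and Prc1 (Rccd1) share exon sequence with a gene on the other strand. The part of those other genes in the counts was not tested. Without TH 24 h replicate 2 the median ratios were 1.82 and 0.743, and 9 genes, now with Kif11 and Mki67, were above WAT.

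By CPM alone, the highest replication genes in striatum were Rrm1 with 21.4 ± 2.43, Mcm6 with 16.3 ± 1.48 and Mcm4 with 12.6 ± 2.69. Per kb of exon, the highest members in striatum were Mki67 with 4.43 ± 1.11 CPM, Rrm2 with 4.21 ± 0.928, Mcm4 with 3.51 ± 0.751, Ccna2 with 3.51 ± 0.756 and Mcm6 with 3.50 ± 0.317, which did not differ beyond their spread. In WAT they were Pcna with 21.8 ± 2.55, Mcm7 with 4.56 ± 0.775 and Mcm4 with 4.29 ± 1.095. The Pcna value is uncertain, since its reads can be split with near-identical copies and the handling of such reads is not given in the sources used here. Pcna stood at 52.4 CPM in WAT and 2.45 in striatum. Normalised counts are scaled to the libraries of 1 tissue, so they are compared only within a tissue. In striatum Pcna had 14.7 to 33.6 normalised counts and its pseudogene Pcna-ps2 had 171 to 232. In WAT Pcna had 955 to 1317 and Pcna-ps2 had 381 to 585.

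**Figure D5:**
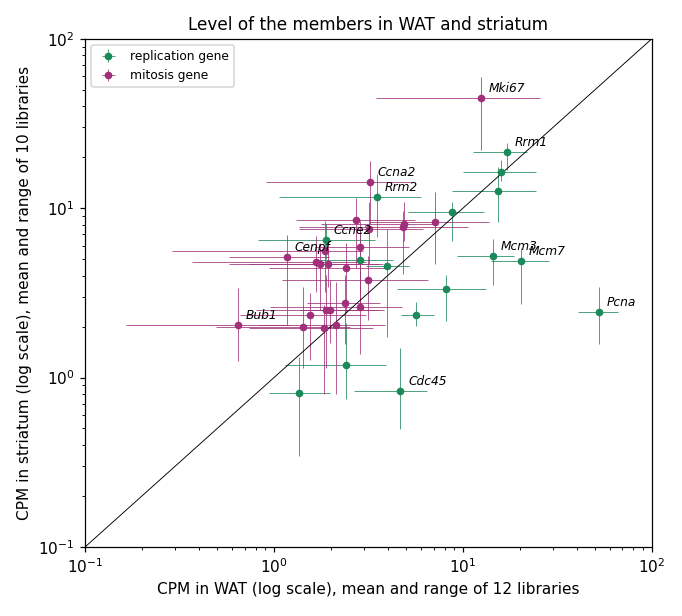
CPM of the 40 members in WAT (x axis) and striatum (y axis), both on log scales, with points at the mean, lines from the lowest to the highest library and the diagonal of equal levels. Most mitosis genes (purple) lie above the diagonal, while Cdc45, Mcm3, Mcm7 and Pcna (green) lie below it.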

How the data were processed

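The authors aligned reads to GRCm38 (mm10) with Bowtie2 2.2.6.2, removed alignments with a quality under 10, counted reads per gene with htseqcount and deposited raw counts, 1 table per tissue. The annotation release and the strand setting are not given in the sources used here. Members and gene lists were chosen with earlier results of these data known. Rows whose symbols had become dates (15 in WAT, 14 in striatum) were left out. Separate fits were made for WAT and striatum, each with 3 groups, in R 4.3.3 with edgeR 4.0.16 (TMM factors, quasi-likelihood F test, two-sided) over rows with a mean normalised count above 10. The Benjamini-Hochberg adjustment ran over every row tested, and an adjusted p under 0.05 was called. Normalised counts are counts scaled to the mean TMM-corrected library size. The SE is the log2 change divided by the square root of F. DESeq2 1.42.0, other scalings, filters and terms, and each library left out in turn were tried. Scripts were tested on simulated data. Replicate pairs differed by more than sampling noise. Named with values are called members, the 3 replication and 3 mitosis members with the smallest p per contrast, Mki67, Top2a, Cdk1, Ccnb1, Pcna, Mcm2 and Bub1, up to 3 called genes per direction of each other list, and the highest members in striatum. Ube2c, Mcm5, Mcm7, Cdc6, E2f1, Ccne1, Rrm2, Mycn and Btg2 were named after their values were seen. Lexogen SENSE libraries were read on a NextSeq sequencer (Illumina).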

Additional observations from a re-analysis of the deposited data

Results flagged for a closer look

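In 136 groups of 4 libraries tested, 4 held a library far from the other 3, where chance gives about 1 in 20 groups. Cdk1 was at 62.6 normalised counts in WAT TH 6 h replicate 1, against 42.6 to 44.98 in the other 3. Mcm3 was at 331 in WAT TH 24 h replicate 2, against 352 to 356. Ncapg was at 32.8 in WAT TH 24 h replicate 1, against 23.2 to 24.4. Mki67 was at 524 in striatum TH 12 h replicate 3, against 334 to 365.

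The effect of TH in WAT differed between 24 h and 6 h for 5 named genes outside the members, by the edgeR quasi-likelihood test of 24 h against 6 h. The difference in log2 change was -0.82 for Pole, 0.55 for Ccnd1, -0.91 for Ccnd2, 1.96 for Cdkn1a and -0.94 for Cdkn2c, with adjusted p from 0.000193 to 0.0401. That of Ccnd1 held in 4 of 12 fits leaving out 1 library and in 6 of 11 other alternatives (adjusted p up to 0.4999), that of Pole in 9 and 8, that of Cdkn2c in 12 and 10, and those of Ccnd2 and Cdkn1a in 12 and 11. Pole, Ccnd1, Ccnd2 and Cdkn1a share exon sequence with a gene on the other strand.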

How the results depend on the processing

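Of 304 alternative values of counts of calls and list medians, 273 moved little and 31 moved. A median counted as moved only where its shift reached the SD between libraries, so some that moved little turned sign. The mitosis median went from 0.34 to -0.10 at 6 h with a term for lymphoid markers. At 24 h it went from 0.13 to -0.08 without PTU replicate 1. Of 1616 other values, mostly for single genes, 26 turned sign. With a term for lymphoid markers (chosen after seeing the data), log2 changes at 6 h were -0.027 for Top2a, -0.17 for Ccnb1, -0.039 for Pcna and -0.078 for Mcm2. At 24 h they were -0.11 for Cenpa, -0.17 for Bub1b, -0.47 for Mki67, -0.44 for Top2a, -0.069 for Pcna and -0.22 for Mcm2, and the medians of replication and mitosis members were -0.20 and -0.56. In that fit 1 member passed, Nusap1 in place of Mcm3. With a term for skeletal muscle Ccnb1 at 24 h was 0.017, and with one for epithelium the log2 change of WAT 6 h against PTU, Pcna was -0.00229. The calls in the lists of genes outside the members were 9 at 6 h, 17 at 24 h and 6 between the times. With only the groups compared they were 5, 11 and 14, with epithelium 3, 8 and 2, and with the lymphoid term 5 at 6 h and 10 between the times. DESeq2 gave 12 and the muscle term 3 between the times. With only the groups compared 2 members passed between the times. Members called at 24 h were 0 with epithelium. The WAT replicate numbers do not pair the libraries (same-number residual correlations -0.466 to 0.383, 3 of 12 best with their own number). With the replicate block, 3 genes of the lists outside the members were called at 6 h and 3 between the times. It called 0 members at 24 h (Mcm3 did not pass). For striatum, where PTU shares only number 3 with the TH groups, the replicate block (added after seeing the data) leaves 1 PTU library in the contrasts; it called 0 members and 0 of all rows, Btg2 and Mycn did not pass, and Mki67 stood at 0.013 at 12 h and 0.026 at 24 h. Leaving out 1 library at a time, members called ranged from 0 to 1 at 6 h, 0 to 2 at 24 h and 0 to 2 between the times. Genes called in the lists outside the members ranged from 2 to 10, 11 to 25 and 3 to 14. The range was -0.52 to 0.10 for Cdk1 and -0.040 to 0.13 for Pcna at 6 h, -0.55 to 0.069 for Cdk1, -0.40 to 0.22 for Ccnb1 and -0.049 to 0.12 for Pcna at 24 h, and -0.39 to 0.0018 for Mki67 in striatum at 24 h. Over all rows, with no library left out, the calls ran from 657 to 2113 at 6 h, 1393 to 3760 at 24 h and 75 to 2444 between the times, and in striatum from 0 to 1442 and 0 to 203; with 1 striatum library left out they ran from 0 to 108 and 0 to 115. The spread between libraries limits the mitosis members: the 95% interval of Mki67 at 6 h reached 1.55. Apart from the library left out, the cause of each shift was not tested.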
